A study of Mus musculus with 3 samples.

Results

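The genes of cholesterol and fatty acid synthesis were examined in mouse thymocytes, which are T cells still maturing in the thymus, of 3 genotypes. The members were a fixed list of 36 genes that encode sterol enzymes, fatty acid enzymes, acyl-CoA synthetases and the regulators of these pathways. A gene was measured when a probe set of the array carried its symbol alone, and where it had several such probe sets the brightest on average was taken. This gave 34 of the 36 genes, out of 19938 genes named in all. Acsl1 and Acsl3 were not analysed here, because no probe set carried either symbol alone.

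Each genotype was represented by 1 Affymetrix whole-transcript array. The wild type mouse was 12 weeks old, the β-catenin transgenic mouse 16 weeks and the TCF-1-deficient mouse (TCF-1-/-) 8 weeks. TCF-1 is a DNA-binding partner of β-catenin, the effector of Wnt signalling. The study looked for candidate targets of the pair, meaning genes down in the mutant that lacks TCF-1 and up in the transgenic. The sources used here do not give the promoter of the transgene, the strain, the sex or the number of mice behind each array, and mention no sort. With 1 array per group no value below has an error or a test, and genotype, age and every other difference between the mice cannot be told apart. Levels are the deposited log2 values, differences are in log2 units, and a gene is called higher or lower at 2-fold (a difference of 1), with 1.5-fold (0.58) as a second rule. Levels of different genes are not compared, since probe sets differ in how brightly they report.

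Cells build cholesterol from acetyl-CoA through the mevalonate pathway, and long-chain fatty acids from the same precursor through acetyl-CoA carboxylase and fatty acid synthase. Both routes are controlled by the SREBP transcription factors, which SCAP carries to the Golgi for activation when sterols are low and which the INSIG proteins hold back in the endoplasmic reticulum when sterols are plentiful. T cells are known to raise both routes when they grow and divide, and products of the fatty acid route are further shaped by desaturases and elongases.

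The arrays carry limits that touch every member. Of the 34 members, 5 had identical printed values on the 3 arrays and 12 had identical values on a pair of them, so an exact 0 is not a measured equality. Over all named genes 33.6% were identical on all 3, against 14.7% of the members. Of the members, 1 (Acacb) lay below the median level over genes, 6.90, on every array. Sex-linked transcripts set the transgenic array apart, with Xist at 4.86 there, 12.49 in the wild type and 12.17 in the TCF-1-deficient sample. The Y-linked Uty, Eif2s3y and Kdm5d were at 8.81, 8.43 and 7.90 on the transgenic array. They were at 4.20, 3.73 and 5.32 on the wild type and 4.43, 3.84 and 5.33 on the TCF-1-deficient array. By these transcripts the transgenic sample was male and the others female, so sex and transgene cannot be told apart. The X-linked members Ebp, Nsdhl and Acsl4 differed between the transgenic and wild type arrays by -0.26, -0.00067 and 0.16. Ctnnb1, the β-catenin gene, was at 11.15 on the wild type, 11.39 on the transgenic and 11.16 on the TCF-1-deficient array. Whether its probes match the transgene is not stated. The median over probe sets differed slightly between arrays: centring them adds 0.13 to every TCF-1-deficient difference from wild type and 0.08 to every transgenic one. Values below wild type by less than that, such as those of Acly, Scd2 and Srebf2 without TCF-1 and of Fasn with the transgene, change sign with it. The median over named genes moved the other way, and centring on it shifts every TCF-1-deficient difference by -0.05 and every transgenic one by -0.0041.

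Most of the synthesis genes differed little between genotypes. On the TCF-1-deficient array 20.6% of the members passed 1.5-fold in either direction, close to the 18.6% of named genes at or above the median level that did. Of all named genes 10.9% did. By direction, 11.8% of the members were higher and 8.82% lower, against 5.88% and 12.7% of the genes at or above the median level. Scd1, a stearoyl-CoA desaturase that makes monounsaturated fatty acids, was the 1 member past 2-fold against wild type, at 3.86 times the wild type level. Fads2, Fasn and Acaca were higher there by 0.81, 0.72 and 0.70. Acsl4, Insig1 and Dhcr7 were lower by 0.86, 0.79 and 0.65. On the transgenic array no member was past 2-fold, and Scd1 alone was past 1.5-fold.

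**Figure D1:**
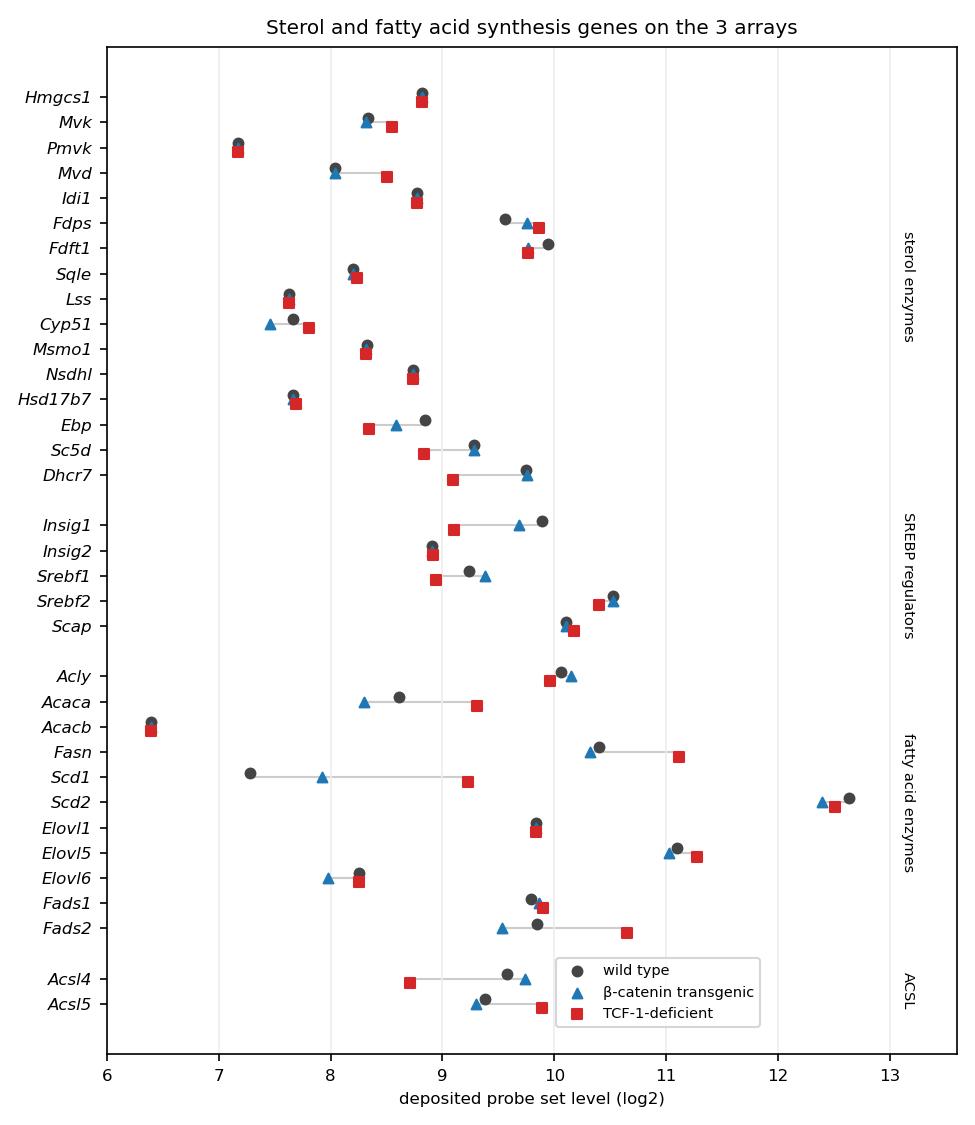
Deposited log2 level (x axis) of each of the 34 measured members (rows, grouped by role, ACSL standing for the acyl-CoA synthetases) on the wild type (circles), β-catenin transgenic (triangles) and TCF-1-deficient (squares) arrays, 1 array each. Symbols are offset vertically so that equal values stay visible. Scd1 has the widest spread, from 7.28 to 9.23, and Pmvk, Idi1, Lss, Acacb and Elovl1 have 1 value on all arrays.

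The promoters below are of the 3 members with the largest difference from wild type among those with an entry in the RefSeq promoter table, together with Hmgcs1. Hmgcs1 was chosen after its values and its sequence were seen, because it is the 1 measured member whose promoter window holds the sterol regulatory element searched for. Each window runs from 250 bases before to 50 bases after the annotated start in GRCm38.p6, read 5′ to 3′ on the strand of the gene. Capitals mark matches on either strand to TCACNCCAC (sterol regulatory element), CCAAT (bound by NF-Y), GGGCGG (bound by Sp1) or TCAAAG (core of the TCF/LEF site).
Fads2, chr19:10101454-10101753, minus strand: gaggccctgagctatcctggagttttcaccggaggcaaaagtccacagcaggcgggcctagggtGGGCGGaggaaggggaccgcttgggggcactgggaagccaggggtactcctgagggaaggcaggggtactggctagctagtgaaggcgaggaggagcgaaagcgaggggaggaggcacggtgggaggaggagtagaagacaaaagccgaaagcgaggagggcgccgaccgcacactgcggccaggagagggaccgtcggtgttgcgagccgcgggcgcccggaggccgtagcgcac
Acsl4, chrX:142390486-142390785, minus strand: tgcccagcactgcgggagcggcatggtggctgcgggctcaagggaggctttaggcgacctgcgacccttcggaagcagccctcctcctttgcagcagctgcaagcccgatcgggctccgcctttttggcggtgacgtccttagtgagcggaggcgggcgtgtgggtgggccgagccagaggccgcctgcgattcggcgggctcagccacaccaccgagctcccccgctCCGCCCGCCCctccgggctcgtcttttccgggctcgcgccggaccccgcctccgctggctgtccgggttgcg
Insig1, chr5:28071162-28071461, plus strand: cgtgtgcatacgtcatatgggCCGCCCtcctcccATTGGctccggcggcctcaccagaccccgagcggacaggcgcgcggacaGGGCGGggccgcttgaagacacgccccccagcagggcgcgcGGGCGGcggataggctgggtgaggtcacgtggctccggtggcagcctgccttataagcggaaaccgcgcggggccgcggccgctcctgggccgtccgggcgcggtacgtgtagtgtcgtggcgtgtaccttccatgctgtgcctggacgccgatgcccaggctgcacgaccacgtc
Hmgcs1, chr13:119690101-119690400, plus strand: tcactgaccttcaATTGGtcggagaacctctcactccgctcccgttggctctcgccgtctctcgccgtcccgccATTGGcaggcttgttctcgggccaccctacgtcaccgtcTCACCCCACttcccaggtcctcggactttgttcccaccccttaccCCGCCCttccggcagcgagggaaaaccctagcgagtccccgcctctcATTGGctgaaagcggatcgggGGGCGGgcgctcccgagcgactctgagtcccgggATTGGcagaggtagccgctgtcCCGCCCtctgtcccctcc

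The windows of Fads2 and Acsl4 held GGGCGG once and at 2 overlapping places, and none of the other motifs. The Insig1 window held 3 matches to GGGCGG and 1 to CCAAT. The Hmgcs1 window held the sterol element 137 bases before the start, with 4 matches to CCAAT and 3 to GGGCGG. Different motifs did not overlap in these windows. Over the 37 windows of the 28 measured members with an entry, 1 (2.70%) held the sterol element, against 1.24% of all 32851 windows in the table. CCAAT was in 64.9% of the members' windows against 37.4% of all, GGGCGG in 70.3% against 35.7%, and TCAAAG in 13.5% against 16.0%. The 5 members with TCAAAG were Acsl5, Elovl1, Elovl6, Insig2 and Pmvk. Without TCF-1 they differed from wild type by 0.51, 0, 0, 0.01 and 0. A match is a run of letters and not a known site, and windows without one say nothing of the factor.

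The first enzymes of the sterol route make mevalonate and turn it into isoprenoid units. Hmgcs1, the synthase that makes HMG-CoA, was at 8.82 on all 3 arrays, with the wild type value 0.0019 above the other two. Mvk, mevalonate kinase, was at 8.33 on the wild type, 8.32 on the transgenic and 8.55 on the TCF-1-deficient array. Mvd, the decarboxylase that makes isopentenyl diphosphate, was at 8.04 on the wild type and transgenic arrays and 8.51 on the TCF-1-deficient array. It was thus 0.46 above wild type without TCF-1, the highest difference among the 16 sterol enzymes. That is under 1.5-fold in the deposited values and just past it (0.60) with each array centred on its median. Pmvk, the kinase between them, stood at 7.17 on every array, and Idi1, the isomerase that follows, at 8.77. The 2 probe sets of Idi1 each had identical values on the 3 arrays.

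Farnesyl diphosphate synthase, encoded by Fdps, supplies sterols and protein prenylation alike. Fdps was at 9.56 on the wild type, 9.76 on the transgenic and 9.87 on the TCF-1-deficient array, so both mutants lay above wild type, by 0.20 and 0.31. Fdft1, squalene synthase and the first committed sterol enzyme, was at 9.94 on the wild type array and 9.76 on both mutant arrays, 0.18 lower. Its second probe set was lower by 0.10 on the transgenic and 0.29 on the TCF-1-deficient array. Sqle, squalene epoxidase, was at 8.20, 8.20 and 8.23 on the wild type, transgenic and TCF-1-deficient arrays. Lss, which closes the rings to lanosterol, was at 7.63 on all of them.

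Among the enzymes after lanosterol, the last 3 stood lower on the TCF-1-deficient array, and the 4 before them differed by at most 0.15. Cyp51, the lanosterol demethylase, was at 7.66 on the wild type, 7.46 on the transgenic and 7.81 on the TCF-1-deficient array. Msmo1 and Nsdhl, which remove the methyl groups at carbon C-4 together with Hsd17b7, were at 8.32 and 8.74 on each array, and Hsd17b7 at 7.67, 7.67 and 7.69. Ebp, the sterol isomerase, was at 8.84 on the wild type, 8.58 on the transgenic and 8.34 on the TCF-1-deficient array. Sc5d, the desaturase that acts after it, was at 9.28 on the wild type and transgenic arrays and 8.84 on the TCF-1-deficient array. Dhcr7, which makes cholesterol from its 7-dehydro precursor, was at 9.75, 9.76 and 9.09 in the same order. Relative to wild type these 3 late enzymes were lower without TCF-1 by 0.50, 0.45 and 0.65, and Dhcr7 alone passed 1.5-fold (1.57-fold), a call lost with each array centred on its median (-0.52). They were set side by side after their values were seen, so the run of 3 carries no test.

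Over the 16 sterol enzymes together, 6 lay above and 7 below wild type without TCF-1 and 3 were identical, with a median of 0 and a range from -0.65 to 0.46. On the transgenic array 2 lay above, 7 below and 7 were identical, with a range from -0.26 to 0.20. The median over all named genes was also 0 in both comparisons. Neither comparison had a sterol enzyme past 2-fold.

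The regulators of the pathway differed in Insig1. Insig1, which retains SREBP in the endoplasmic reticulum and is itself an SREBP target, was at 9.89 on the wild type, 9.68 on the transgenic and 9.10 on the TCF-1-deficient array. It was 1.73-fold below wild type without TCF-1 and 1.16-fold below it with the transgene. Insig2, its relative, was at 8.90 on the wild type and transgenic arrays and 8.91 on the TCF-1-deficient array. Srebf1, the gene of SREBP1, which favours fatty acid genes, was at 9.24, 9.38 and 8.94 on the wild type, transgenic and TCF-1-deficient arrays. Srebf2, the gene of SREBP2, which favours sterol genes, was at 10.52, 10.52 and 10.40. Scap, the escort of both, was at 10.11, 10.11 and 10.17. Srebf1 thus stood 0.30 below wild type without TCF-1 and 0.14 above it with the transgene. Srebf2 was 0.12 lower and Scap 0.07 higher without TCF-1, and both were identical to wild type with the transgene. The activity of SREBP is set by cleavage of the protein, which arrays do not measure.

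Of the 11 fatty acid enzymes, 4 were higher at 1.5-fold on the TCF-1-deficient array and 0 lower. Over all named genes 4.04% were higher and 6.9% lower, and over those at or above the median level 5.88% and 12.7%. Of all 34 members 11.8% were higher and 8.82% lower. In either direction 20.6% of them passed 1.5-fold, against 18.6% of the genes at or above the median level. That pooled share leaves direction aside and does not bear on the fatty acid enzymes alone. Their list is short, was drawn up with earlier results of these arrays known and was not tested, so nothing particular to them is read from their count. Acly, which makes cytosolic acetyl-CoA from citrate, was at 10.06 on the wild type, 10.15 on the transgenic and 9.96 on the TCF-1-deficient array. Acaca, the acetyl-CoA carboxylase that commits carbon to fatty acids, was at 8.61 on the wild type, 8.30 on the transgenic and 9.31 on the TCF-1-deficient array. Fasn, fatty acid synthase, was at 10.40, 10.32 and 11.11 in that order. Acaca and Fasn were thus 1.63-fold and 1.65-fold above wild type without TCF-1, and both were lower than wild type with the transgene, by 0.31 and 0.08. The second probe set of Acaca gave 0.51 and -0.45 for the same differences, which is the same order of the arrays but under 1.5-fold. Acacb, the mitochondrial carboxylase that restrains fatty acid oxidation, was dim at 6.39 on every array.

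The desaturases gave the largest single difference of the pathway. Scd1 was at 7.28 in the wild type, 7.93 in the transgenic and 9.23 in the TCF-1-deficient sample. Both mutants lay above wild type, the TCF-1-deficient one by 1.95 (3.86-fold) and the transgenic one by 0.65 (1.57-fold). The wild type value was not far above the median level of 6.90, so the sizes of these folds rest on a fairly dim reference. Scd2, the desaturase relative, was at 12.64, 12.39 and 12.51 on the wild type, transgenic and TCF-1-deficient arrays, and so lay 0.25 and 0.13 below wild type. Fads2, the delta-6 desaturase of polyunsaturated fatty acids, was at 9.85 on the wild type, 9.53 on the transgenic and 10.65 on the TCF-1-deficient array. It was 1.75-fold above wild type without TCF-1 and 1.25-fold below it with the transgene. Fads1, the delta-5 desaturase, was at 9.79, 9.86 and 9.90.

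Scd1 and Fads2 both have relatives next to them on chromosome 19, which allowed the neighbours to be set side by side. In the order of the RefSeq annotation the first cluster runs Scd3, Scd2, Scd4 and Scd1, with 0 other protein-coding genes starting between them. On the TCF-1-deficient array their differences from wild type were 0, -0.13, -0.53 and 1.95. With the transgene they were 0, -0.25, -0.53 and 0.65. Scd1 was therefore the 1 gene of its cluster above wild type on either mutant array in the deposited values, and this did not hold once the arrays were centred, which adds 0.13 without TCF-1 and 0.08 with the transgene to each neighbour. Scd3 was below the median level over genes on all 3 arrays, and Scd4 on both mutant arrays, where the pair of values was identical (6.69 against 7.23 on the wild type array). In the second cluster, Fads3, Fads2 and Fads1 differed by 0, 0.81 and 0.11 without TCF-1 and by 0, -0.32 and 0.07 with the transgene, and Fads3 was dim at 6.47 on every array. Close relatives such as these can share probe signal, and probe sequences were not used here.

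**Figure D2:**
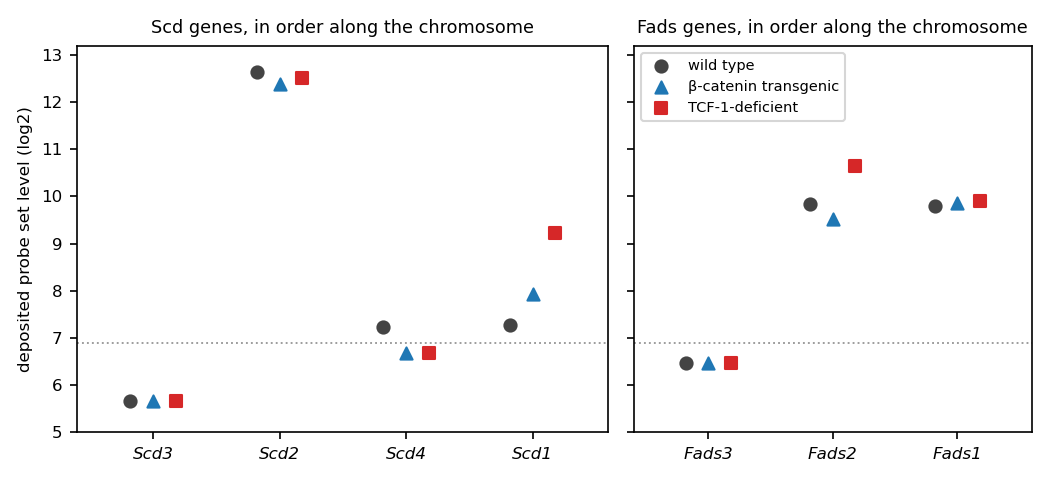
Deposited log2 level (y axis) of the Scd genes (left) and the Fads genes (right) in their order on chromosome 19, for the wild type (circles), β-catenin transgenic (triangles) and TCF-1-deficient (squares) arrays, 1 array each; the dotted line is the median level over genes, 6.90. Scd1 climbs from 7.28 to 9.23 while Scd2 stays between 12.39 and 12.64, and Fads2 spans 9.53 to 10.65 while Fads1 stays between 9.79 and 9.90.

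The elongases, which extend fatty acids beyond the length made by fatty acid synthase, moved little. Elovl1 was at 9.83 on all arrays. Elovl5, which acts on polyunsaturated chains, was at 11.09 on the wild type, 11.02 on the transgenic and 11.27 on the TCF-1-deficient array. Elovl6, which extends palmitate to stearate, the substrate of the SCD enzymes, was at 8.26 on the wild type and TCF-1-deficient arrays and 7.97 on the transgenic array. Over the 11 fatty acid enzymes, 6 lay above and 2 below wild type without TCF-1, with a median of 0.11 and a mean of 0.39. With the transgene 3 lay above and 6 below, with a median of -0.07.

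The acyl-CoA synthetases activate free fatty acids for use. Acsl4, which prefers arachidonic acid and is X-linked, was at 9.58 on the wild type, 9.74 on the transgenic and 8.71 on the TCF-1-deficient array. It was the lowest member relative to wild type without TCF-1, at 1.82-fold below. Acsl5 was at 9.38, 9.30 and 9.89, higher by 0.51 without TCF-1. The 2 measured synthetases thus differed from wild type in opposite directions on that array. With the transgene Acsl4 and Acsl5 differed by 0.16 and -0.08.

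**Figure D3:**
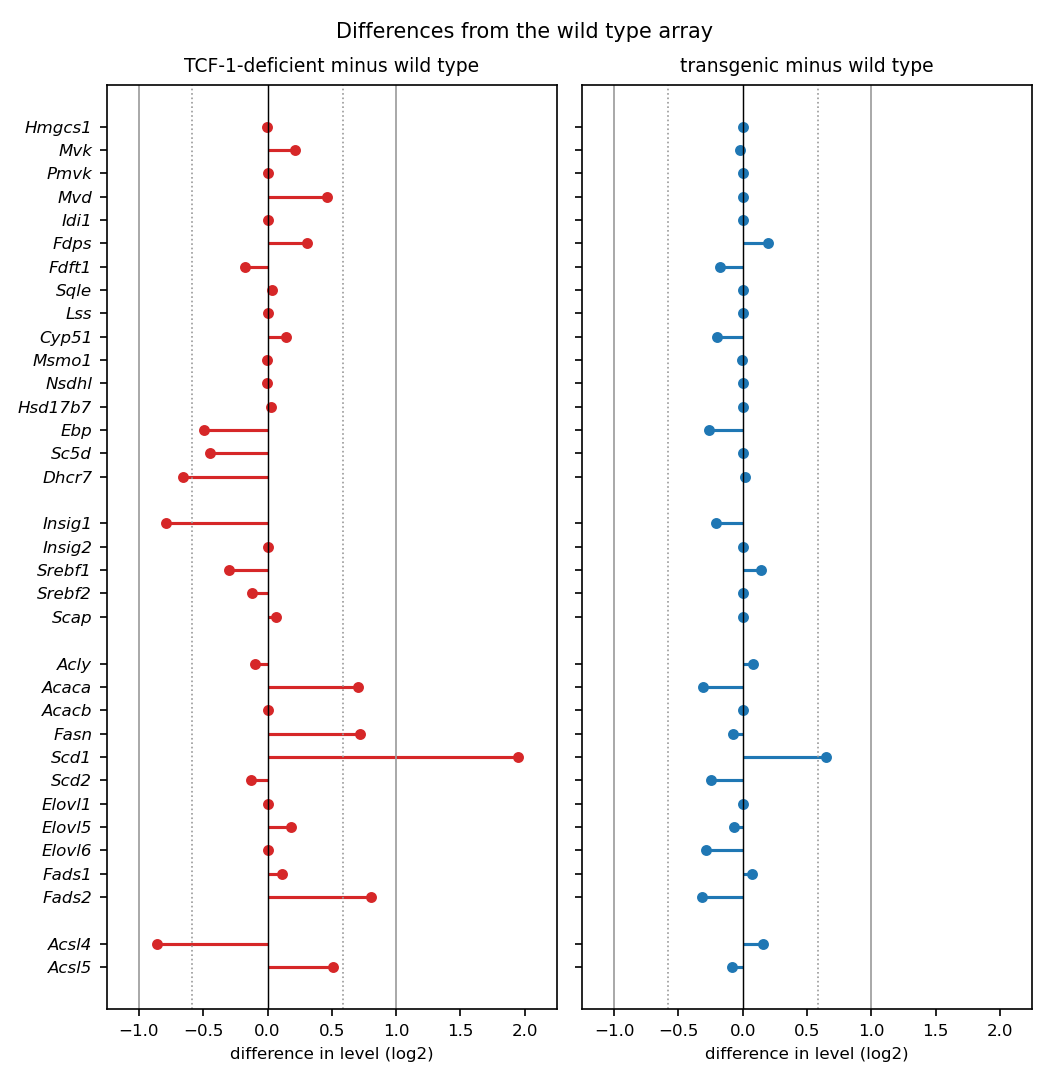
Difference in log2 level from the wild type array (x axis) of each of the 34 members (rows) on the TCF-1-deficient array (left) and the transgenic array (right), 1 array each; solid grey lines mark 2-fold and dotted lines 1.5-fold. Without TCF-1, Scd1 passes 2-fold, and Fads2, Fasn, Acaca, Acsl4, Insig1 and Dhcr7 pass 1.5-fold; with the transgene, Scd1 passes 1.5-fold.

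The counts were then read against all named genes. On the TCF-1-deficient array 1 of 34 members was higher by 2-fold, where 1.33% of all named genes were, and 0 were lower, where 2.62% were. At 1.5-fold, 4 members were higher (11.8%, against 4.04% of all named genes) and 3 lower (8.82%, against 6.9%). With each array centred on its median over probe sets the split was 6 higher and 2 lower, since Mvd and Acsl5 were gained and Dhcr7 was lost. Centred on the median over named genes it was again 4 and 3. Identical values were less common among the 9969 genes at or above the median level (18.8%) than among all named genes (36.4%), and every measured member except Acacb reached that level on at least 1 array. These genes were therefore also counted, with the level used as a filter and not to compare genes. Among those, 5.88% were higher and 12.7% lower at 1.5-fold. In either direction, 20.6% of the members, 18.6% of these brighter genes and 10.9% of all named genes passed 1.5-fold. The pooled share of the members was thus near that of the brighter genes. Of the members, 15 lay above and 13 below wild type, against 3532 above and 4566 below among the brighter genes.

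On the transgenic array 0 of 34 members were past 2-fold, where 0.15% of all named genes were higher and 0.0953% lower. At 1.5-fold 1 member was higher, where 0.487% of all named genes and 0.772% of the brighter ones were, and 0 were lower, where 0.667% and 1.05% were. Of the members, 7 lay above wild type, 15 below and 12 were identical. The range ran from -0.32 (Fads2) to 0.65 (Scd1), and 22 of the 34 were within 0.1 of wild type.

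**Figure D4:**
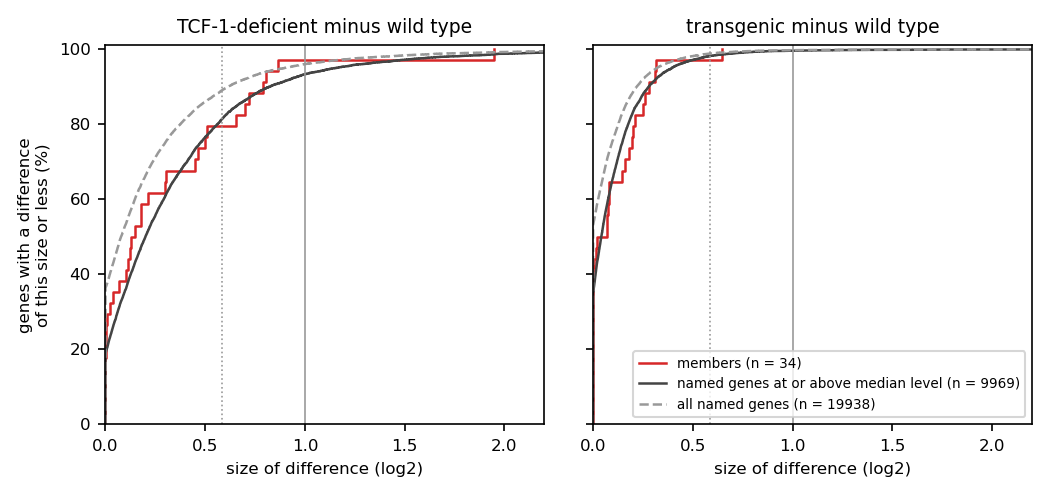
Share of genes (y axis, percent) whose difference from wild type is no larger than the size on the x axis (log2), for the 34 members (red), the 9969 named genes at or above the median level (dark grey) and all 19938 named genes (dashed), on the TCF-1-deficient array (left) and the transgenic array (right). The curve of the members runs close to that of the brighter genes: 20.6% and 18.6% lie beyond the dotted 1.5-fold line without TCF-1.

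Set directly against each other, the mutant arrays differed most in Scd1, Fads2, Acsl4 and Acaca. These differences use the values already given and are no separate evidence. On the transgenic array relative to the TCF-1-deficient one, Scd1 was lower by 1.30, Fads2 by 1.12 and Acaca by 1.01, and Acsl4 was higher by 1.02. That is 3 members lower by 2-fold, where 1.57% of all named genes were, and 1 higher, where 2.45% were. At 1.5-fold 5 were lower (background 4.4%), with Fasn (-0.79) and Acsl5 (-0.59) added, and 2 higher (background 6.29%), with Dhcr7 (0.67) added. Acaca and Acsl4 sat at the 2-fold rule: Acaca was at -0.99 with the mean of its probe sets, and Acsl4 was at 0.97 with each array centred on its median and 0.99 after removal of an intensity trend. Scd1 and Fads2 kept differences beyond 1 under these settings. The pattern sought by the study, down in the TCF-1-deficient and up in the transgenic sample, was met at 1.5-fold on both sides by 0 members. Of the 3 members lower at 1.5-fold without TCF-1, Acsl4 and Dhcr7 lay above wild type with the transgene, by 0.16 and 0.01, and Insig1 lay below it.

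The rest of the sterol pathway was followed through lists of related genes. Of 10 other sterol synthesis genes 5 were measured, and 0 were past 1.5-fold in either mutant. Lbr, which doubles as a nuclear lamina receptor and sterol reductase, had the largest difference (-0.30 without TCF-1). Of the isoprenoid branch, which attaches farnesyl and geranylgeranyl groups and makes ubiquinone and dolichol, 11 of 13 were measured, and 0 passed 1.5-fold. The medians of both lists were 0 in each comparison with wild type.

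Some of the genes that take up, move and export sterol, though not most, held larger differences on the TCF-1-deficient array than any measured sterol enzyme. Of 10 measured genes of uptake and transport, 3 were lower by 2-fold without TCF-1 and 0 higher, with a median of -0.41. In all 8 lay below wild type there and 2 above. Gramd1b, which moves cholesterol from the plasma membrane to the endoplasmic reticulum, was at 9.01 on the wild type, 8.18 on the transgenic and 6.54 on the TCF-1-deficient array. Its relative Gramd1a was at 10.63, 10.48 and 9.42. Lipa, the lysosomal acid lipase that frees cholesterol from its esters, was at 12.31, 12.45 and 10.98. All 3 were lowest on the TCF-1-deficient array, by 2.47, 1.21 and 1.33 below wild type. The TCF-1-deficient value of Gramd1b was dim, under 6.90, which leaves the size of its fold uncertain.

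Of 10 measured genes of the liver X receptor (LXR), which senses oxysterols, and of cholesterol efflux, 2 were lower by 2-fold without TCF-1 and 0 higher, with a median of -0.30. In all 5 lay below wild type there, 4 above and 1 was identical, and 4 of the 10 stayed below 6.90 on every array. Abca1, the exporter that loads cholesterol onto apolipoproteins, was at 8.96 on the wild type, 8.64 on the transgenic and 7.26 on the TCF-1-deficient array, 3.25-fold below wild type. Mylip, the ubiquitin ligase that degrades lipoprotein receptors, was at 10.38, 10.63 and 9.28. Abcg1, another LXR-induced exporter, was 0.65 lower without TCF-1 and Apoe, an apolipoprotein, 0.57 higher. Among 8 measured genes listed for the handling of SREBP and INSIG, 6 lay below wild type without TCF-1, 0 above and 2 were identical. Of the 9969 named genes at or above the median level 4566 lay below. The lowest was Rnf145, an LXR-induced ubiquitin ligase, at -0.74, the 1 gene of that list past 1.5-fold. With the transgene 0 genes of these 3 lists were past 2-fold, and their medians were 0.02, 0 and 0. Of all named genes 2.62% were lower by 2-fold, and of those at or above the median level 4.75%. The lists are short and were drawn up with earlier results of these arrays known. Nothing particular to them is therefore read from 3 of 10 and 2 of 10, or from 6 of 8 below wild type.

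Of 23 other genes of fatty acid synthesis, 0 were past 2-fold in either comparison. At 1.5-fold without TCF-1, 1 was higher, Fads6 (0.64), and 2 were lower, Acss1 and Acss2, which make acetyl-CoA from acetate (-0.69 and -0.67). Slc25a1, the mitochondrial citrate carrier, was 0.37 higher, and Gpam, which starts triglyceride synthesis, 0.33 higher. On the TCF-1-deficient array 10 of the 23 lay above wild type, 6 below and 7 were identical, and 10 of the 23 stayed below 6.90 throughout. With the transgene 1 was past 1.5-fold, Hacd1 (0.71), a dehydratase of the elongation cycle.

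**Figure D5:**
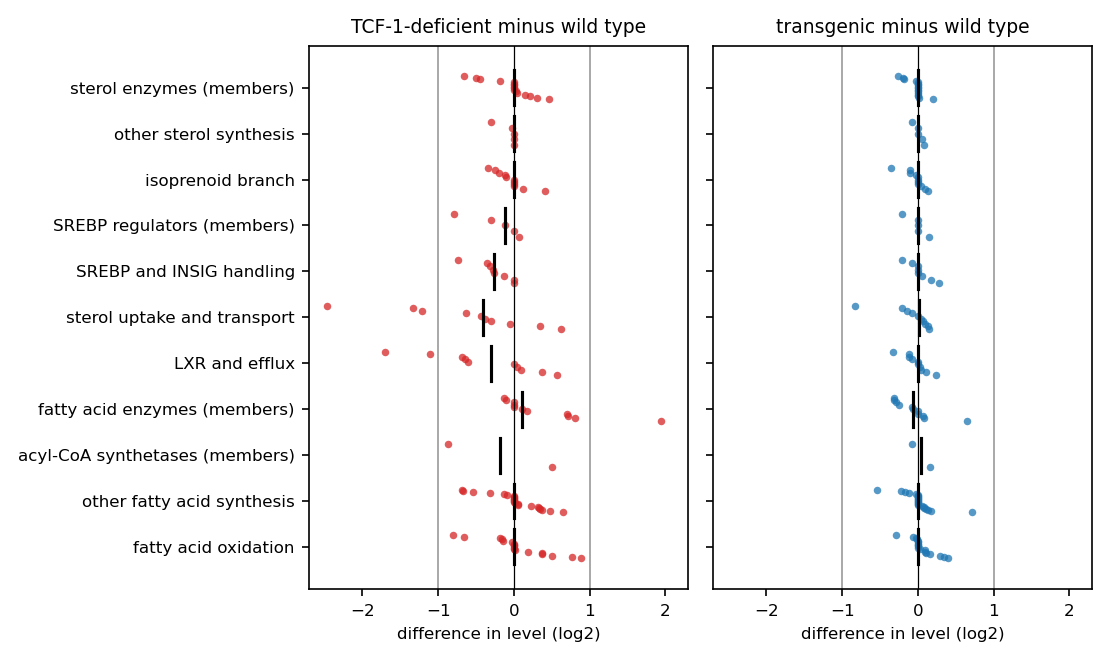
Difference in log2 level from wild type (x axis) of each measured gene (points) in 11 lists of lipid genes (rows), with the list median as a black bar, on the TCF-1-deficient array (left) and the transgenic array (right), 1 array each; grey lines mark 2-fold. Sterol uptake and transport and LXR and efflux have medians of -0.41 and -0.30 without TCF-1, the sterol enzymes have a median of 0, and the fatty acid enzymes 0.11 with Scd1 at 1.95.

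Markers of several cell types differed between the arrays together with these values. For the counts below, 1.33% of all named genes were higher and 2.62% lower by 2-fold without TCF-1, and 0.15% were higher with the transgene. Of 11 measured markers of double-positive thymocytes, which carry both co-receptors, 10 were lower by 2-fold without TCF-1. Their mean level was 12.00 on the wild type, 12.11 on the transgenic and 10.26 on the TCF-1-deficient array, so thymocyte markers were bright on each. The mean over 10 genes listed for the earlier DN3 stage and the stages before it was 8.23, 8.09 and 9.76. Of these, 7 were higher by 2-fold without TCF-1. In all 8 lay above wild type there, 1 was identical and 1, Cd44, lay below it by 0.91. With the transgene Cd44 was 1.68 above wild type, where 7 of the 10 lay below, and the means include it. B lymphocyte markers were at 7.03, 7.26 and 8.38 over 9 genes, with 4 higher by 2-fold on the TCF-1-deficient array. The 12 myeloid and dendritic markers were at 7.41, 7.54 and 8.00, with 4 higher by 2-fold on the TCF-1-deficient array. The median difference of this list was 0.18 there, with 8 above wild type, 2 identical and 2 below (Itgam and Cd68, by 0.14 and 0.11). Proliferation genes, 14 in number, were at 10.98, 10.83 and 11.13, and 0 passed 1.5-fold against wild type. The 8 markers of single-positive thymocytes, the most mature stage, were at 8.78, 8.43 and 8.27. Without TCF-1, 2 were lower by 2-fold, Cd69 (-2.24) and Cd40lg (-1.62), and Il7r was higher by 0.63. In all 3 lay above wild type there, 4 below and 1 was identical, with a median of -0.12. With the transgene 1 lay above, 6 below and 1 was identical. Of 4 erythroid markers 1, Alas2, the haem synthesis enzyme of red cell precursors, was higher by 2-fold on both mutant arrays. It differed by 1.14 without TCF-1 and 1.11 with the transgene. Klf1, Epb42 and Slc4a1 differed by 0, 0.05 and 0.18 without TCF-1 and by 0, 0 and 0.18 with the transgene. Of the 4 markers 3 stayed below 6.90 throughout, so any difference of this list rested on Alas2. The 12 markers of thymic epithelium and stroma were at 6.91, 6.87 and 7.18, with 1 higher and 1 lower by 2-fold without TCF-1. The higher one, Pdgfrb, rose from 7.15 in the wild type to 11.62, and the lower one was Cldn4 (-1.44). At 4.47, Pdgfrb had the highest difference of any named gene in that comparison. The list median was 0.02, so the higher mean rested on Pdgfrb, and 7 of the 12 stayed below 6.90 throughout. Markers of adipocytes, the fat cells that can surround a thymus, were at 6.22 over 9 genes on every array, and 8 of the 9 stayed below 6.90 throughout. Adipoq and Fabp4 were among those 8, at 4.96 and 5.21 on each of the 3 arrays. Identical dim values are not a measured equality, so they do not show whether fat cells differed. Without TCF-1, 6 of the 9 were identical to wild type. Pck1 and Cidec lay 0.28 and 0.26 above it, and Lipe 0.50 below. In whole suspensions fewer cells of a type and less RNA per cell cannot be told apart, and the part of these populations in the values of Scd1, Fads2, Abca1 and the other lipid genes was not tested.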

How the data were processed

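RNA of 3 thymocyte suspensions was measured, 1 array per genotype. The deposited values were taken as log2, because they lie between 1.73 and 14.8 and the submitters' processing notes name RMA, whose output is on that scale, and Partek. The log base itself is not stated, nor are versions, settings or a genome build. RMA's usual summary step, median polish, can return equal values when few arrays are summarised. Whether it made the identical values seen here was not tested.

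Of 35556 probe sets, 21789 had 1 gene symbol in the platform annotation, 1621 had several and were not used, and 12146 are unnamed here. All 34 measured members matched the GRCm38.p6 gene table by Entrez identifier. Columns of other samples numbered 0. The deposited normalisation was kept, and differences are one array minus another. No test was possible with 1 array per genotype, and precision is limited by their number. The calculation was tested on simulated data, which checks the code and not how reliable the calls from these arrays are. All 36 members were to be named, with lipid genes past 2-fold and 5 others in any case, of which 2 (Abca1 and Cpt1a) were measured. Other genes were named after their values were seen. The members and lists were chosen with earlier results of these data known. Alternatives covered the threshold, scaling, dim genes, probe sets and identical values. Promoter sequences are RefSeq's (GRCm38.p6). Python 3.11.15, NumPy 2.4.6, pandas 2.3.3, statsmodels 0.14.6 and matplotlib 3.10.9 were used.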

Additional observations from a re-analysis of the deposited data

How the results depend on the processing

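No paired analysis was possible because each genotype has 1 array, and no replicate could be left out. Against wild type, the 2-fold counts of members (1 higher and 0 lower without TCF-1, 0 and 0 with the transgene) did not change with either centring, loess (span 0.3), the filter on dim genes or the choice of probe set. At 1.5-fold they became 4 and 3 without TCF-1, and 1 and 0 with the transgene. Between the mutant arrays, 1 member was higher and 3 lower at 2-fold, 2 and 5 at 1.5-fold, and 0 and 0 at 3-fold. The 1 higher became 0 with each array centred on its median over probe sets and 0 after loess, since Acsl4 lies at the threshold, and the 3 lower became 2 with the mean or the dimmest of the probe sets, since Acaca does too. Leaving out X-linked and Y-linked genes, an alternative chosen after seeing the data, changed the 2 higher at 1.5-fold to 1. The median of the members without TCF-1 moved from 0 to 0.13 with centring, which adds 0.13 to every gene of that comparison and 0.08 to every gene of the transgenic one. With it, 6 members were higher and 2 lower at 1.5-fold without TCF-1. Centring on the median of the named genes, also chosen after seeing the data, gave 4 and 3 there, and 1 higher and 2 lower at 2-fold between the mutant arrays (3 and 4 at 1.5-fold). No called difference of a member changed sign. Dim probe sets such as Acacb limit what could be seen.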

Other observations

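Fatty acid oxidation, the route that breaks down what the members build, was measured in 18 of 20 listed genes. No gene was past 2-fold in either comparison with wild type, and the medians were 0. Without TCF-1, Acaa2, the thiolase of the last mitochondrial step, was at 11.43 against 10.54 on the wild type array, and Pparg, a lipid-sensing receptor, was higher by 0.77 but below 6.90, the median level over genes, throughout. Acadm, the medium-chain dehydrogenase, was at 8.64 against 9.44, and Eci2, an isomerase for unsaturated chains, was lower by 0.65. Cpt1a, the gate for fatty acids into mitochondria, was above wild type on both mutant arrays, by 0.38 on the TCF-1-deficient and 0.35 on the transgenic array. With the transgene 8 of the 18 lay above wild type, 4 below and 6 were identical, and 0 passed 1.5-fold.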
